A study of Homo sapiens with 2 samples.

Results

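Of the 1947 genes in a table that compared ebastine-treated with vehicle-treated C4-2 cells, 22 belonged to the families that build the extracellular matrix, attach cells to it and to each other, or form intermediate filaments. They were chosen by name, with earlier results of these data known. The names were those of collagens (COL), integrins (ITGA, ITGB), laminins (LAM), cadherins (CDH) and protocadherins (PCDH), claudins (CLDN), keratins (KRT), CADM, ADAM, MMP and TIMP genes. FN1, DSP and VIM were added. RefSeq holds 335 protein-coding symbols that meet this rule, and how many of them were tested is not known. The 22 were 4 collagens, 2 laminins, 2 integrins, 5 cadherins and protocadherins, 1 claudin, 1 keratin, 2 ADAM-type genes, 1 matrix metalloproteinase, FN1, DSP, VIM, and ITGB3BP. ITGB3BP carries an integrin name, but its product is best known as a centromere protein, so it is described apart. No CADM or TIMP gene was listed.

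C4-2 is an established line of human prostate cancer cells that descends from LNCaP and has luminal epithelial features. Both cultures came from cells at passage 10 to 15 grown in RPMI-1640 with 10% fetal bovine serum, left 24 hours to attach after replating, and then given fresh medium with vehicle or with ebastine, an antihistamine that blocks the histamine H1 receptor. The labels name no genetic change in either group, and the sources used here state neither the dose nor the length of exposure. With 1 library of polyadenylated RNA in each group, no difference below carries an error or a test between conditions, and the depth is unknown. The title of the series links the drug to EZH2, a Polycomb methyltransferase, and the comparison asks which transcripts differ with treatment.

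Values are FPKM, fragment counts scaled to transcript length and to the number of mapped fragments, as the authors' Cuffdiff run gave them. The table ends where the deposited p-value reaches 0.0499, so a family member with a small difference, or one that was not tested, is not in it and has no value here. Of the markers of the luminal epithelium 1 of 7 was listed, KLK3, at 2476 FPKM in the vehicle and 1599 FPKM in the ebastine library. None of the 5 basal epithelial, 11 fibroblast and endothelial or 4 leukocyte markers was listed, among them KRT5, KRT14, COL1A1, COL3A1 and PECAM1. A marker that is not listed may be at any level, so the table cannot show which of these cell types were absent. In bulk RNA, fewer cells with a transcript and less transcript per cell cannot be told apart.

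The matrix is a meshwork of secreted proteins. Fibrillar and network collagens give it strength, laminins form the basement membrane under epithelia, and fibronectin links collagen to cells. Integrins are paired alpha and beta subunits that bind these proteins outside the cell and couple them to actin inside. Cadherins, claudins and desmosomes join neighbouring cells, keratins and vimentin form the filaments that desmosomes and other junctions anchor, and metalloproteinases of the MMP and ADAM groups cut matrix and surface proteins. In prostate epithelium these genes separate luminal from basal cells and are studied in invasion, where loss of junctions and gain of vimentin and fibronectin often go together.

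Promoter sequences were set beside the values because several matrix genes lay in 1 direction. RefSeq windows of 300 bases, from 250 before to 50 after a transcript start on GRCh38.p14, matched 18 of the 22 members. COL6A1, ITGA3, CLDN8 and MMP16 had none. The windows numbered 35116 for 27305 genes, and only the first window given for a gene was searched. The 7 printed, chosen after their values were seen, are 4 matrix genes that were higher with ebastine (the 2 collagens with the largest ratios, a type VI collagen chain and fibronectin), 2 clustered protocadherins that share a locus but not a start, and desmoplakin, the most abundant member that was lower. Each line gives the 250 bases before the start, 5′ to 3′ on the gene's strand. Capitals mark every match, on either strand, to the motifs searched: TATAAA (the TATA box), CCAAT (bound by the NF-Y complex), GGGCGG (the GC box bound by Sp1-type factors), TGANTCA (AP-1), TGACGTCA (the cAMP response element) and CACCTG (an E-box bound by SNAI and ZEB factors). Matches can overlap, and adjoining matches form 1 run of capitals.
COL16A1: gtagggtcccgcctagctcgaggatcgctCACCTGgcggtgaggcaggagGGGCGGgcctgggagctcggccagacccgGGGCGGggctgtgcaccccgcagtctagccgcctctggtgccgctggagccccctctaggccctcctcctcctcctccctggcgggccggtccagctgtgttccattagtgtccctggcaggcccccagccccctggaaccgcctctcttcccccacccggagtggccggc
COL5A1: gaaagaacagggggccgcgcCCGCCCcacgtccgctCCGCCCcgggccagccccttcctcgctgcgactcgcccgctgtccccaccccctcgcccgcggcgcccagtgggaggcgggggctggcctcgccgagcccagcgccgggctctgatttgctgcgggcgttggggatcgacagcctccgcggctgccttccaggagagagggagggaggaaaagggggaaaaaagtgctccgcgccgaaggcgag
COL6A2: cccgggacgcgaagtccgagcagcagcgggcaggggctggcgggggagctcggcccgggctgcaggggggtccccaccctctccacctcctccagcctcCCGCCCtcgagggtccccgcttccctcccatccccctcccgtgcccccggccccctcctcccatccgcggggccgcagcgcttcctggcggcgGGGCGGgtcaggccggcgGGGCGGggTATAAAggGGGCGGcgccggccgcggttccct
FN1: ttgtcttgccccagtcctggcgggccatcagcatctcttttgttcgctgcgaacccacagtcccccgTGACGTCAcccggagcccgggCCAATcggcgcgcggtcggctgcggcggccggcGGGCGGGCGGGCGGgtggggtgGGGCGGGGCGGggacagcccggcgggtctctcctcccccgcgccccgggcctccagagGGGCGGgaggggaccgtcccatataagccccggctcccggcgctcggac
PCDHGA8: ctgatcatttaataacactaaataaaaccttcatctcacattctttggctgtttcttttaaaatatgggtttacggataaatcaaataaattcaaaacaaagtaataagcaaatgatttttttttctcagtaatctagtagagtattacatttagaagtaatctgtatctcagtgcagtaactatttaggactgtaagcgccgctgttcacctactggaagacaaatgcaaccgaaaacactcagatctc
PCDHGC3: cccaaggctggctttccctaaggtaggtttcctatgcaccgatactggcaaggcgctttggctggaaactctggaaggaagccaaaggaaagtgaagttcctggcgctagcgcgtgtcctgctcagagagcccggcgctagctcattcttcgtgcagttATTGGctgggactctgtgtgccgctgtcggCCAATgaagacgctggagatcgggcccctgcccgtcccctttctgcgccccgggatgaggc
DSP: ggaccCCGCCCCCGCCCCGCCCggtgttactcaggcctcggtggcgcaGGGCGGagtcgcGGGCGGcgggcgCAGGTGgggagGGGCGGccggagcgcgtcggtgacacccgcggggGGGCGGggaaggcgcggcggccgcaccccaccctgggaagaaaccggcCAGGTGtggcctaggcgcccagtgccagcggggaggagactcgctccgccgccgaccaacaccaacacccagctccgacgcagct

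The printed bases lie at chr1:31704018-31704267 (minus strand) for COL16A1, chr9:134641553-134641802 (plus strand) for COL5A1, chr21:46097862-46098111 (plus strand) for COL6A2, chr2:215436069-215436318 (minus strand) for FN1, chr5:141392383-141392632 (plus strand) for PCDHGA8, chr5:141475716-141475965 (plus strand) for PCDHGC3 and chr6:7541421-7541670 (plus strand) for DSP. GC boxes were the commonest match. There were 6 in the printed FN1 bases, 7 in those of DSP, 4 in COL6A2, and 2 each in COL16A1 and COL5A1, while PCDHGA8 and PCDHGC3 had 0. Over the whole windows GGGCGG was found in 14 of 18 members (77.8%), beside 70.2% of the 1384 listed genes with a window and 44.6% of all 27305 genes with a window. The members therefore lie close to the other listed genes in this respect. Among these 18, FN1 was the only member with TGACGTCA, found in 3.18% of the listed genes with a window and 1.98% of all windows searched. COL6A2 was the only member of the 18 with TATAAA, found in 8.38% of those listed genes and 12.0% of all windows searched. CACCTG was in 6 of 18 windows (33.3%, against 18.9% of the listed genes and 20.6% of all windows). These 6 were members that were higher (COL16A1, KRT75, LAMA3, PCDH1) and lower (DSP, ADAMTSL3). TGANTCA was in LAMA3 alone of the 18, against 4.34% of the listed genes and 7.76% of all windows searched. CCAAT was in 4 of 18 (22.2%, against 41.5% of the listed genes and 35.7% of all windows). A match is a string of letters in the window and not a measured binding site.

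**Figure D1:**
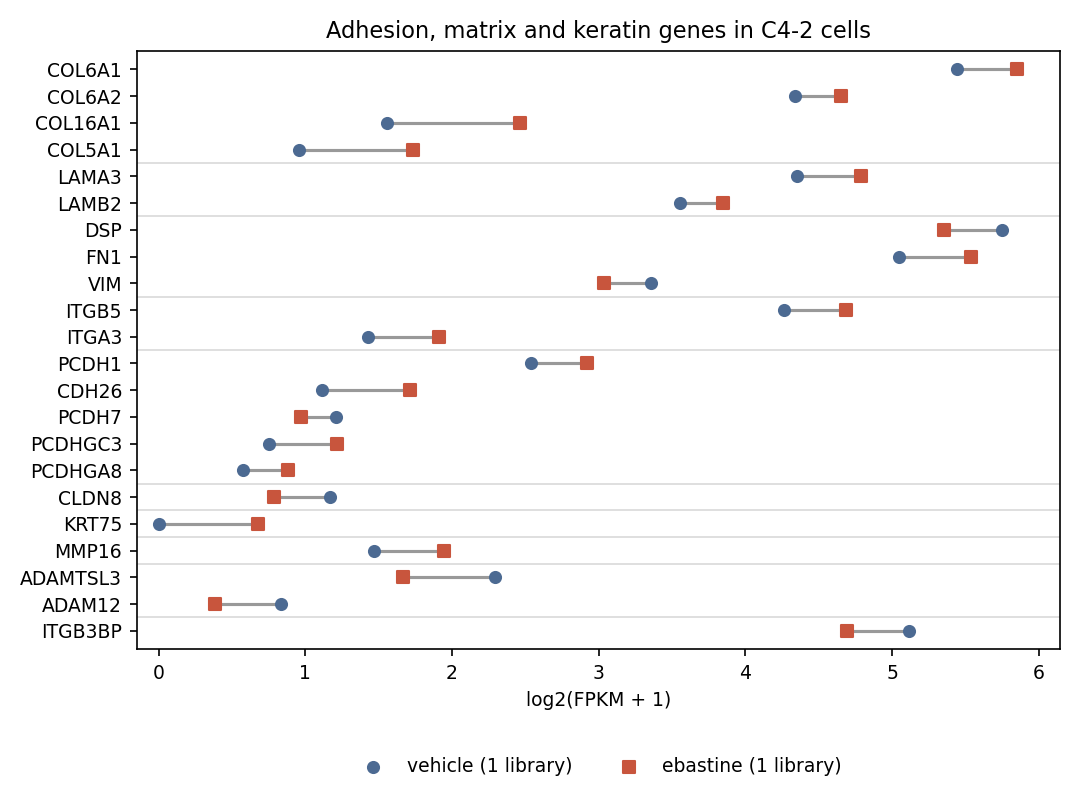
Level of each of the 22 members as log2(FPKM + 1), with circles for the vehicle library, squares for the ebastine library and grey lines between classes. The collagen, laminin and integrin squares lie to the right of their circles, as does that of FN1, whereas DSP, VIM, CLDN8, PCDH7, ITGB3BP and both ADAM-type genes lie to the left.

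Every listed collagen, laminin and integrin was higher in the ebastine library, and so was fibronectin. These 9 genes added up to 146.7 FPKM in vehicle and 200.6 FPKM in ebastine cells, a ratio of 1.37. They were put together after their shared direction was seen, so the sum only describes them. All 22 members summed to 258.6 and 291.2 FPKM, a ratio of 1.13, and FN1, DSP and VIM together to 94.1 and 92.4 FPKM, a ratio of 0.982. Junction and filament genes went both ways, and the 2 ADAM-type genes were lower. Ratios below are log2((ebastine FPKM + 1)/(vehicle FPKM + 1)), where the pseudocount of 1 FPKM understates the change of low genes.

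Of the 22 members, 18 had a mean of at least 1 FPKM over both libraries, and 13 of these were higher and 5 lower with ebastine. The mean includes the library where a gene is higher, so some members passed through that library alone. COL5A1 and PCDHGC3 were under 1 FPKM with vehicle and PCDH7 was under 1 FPKM with ebastine. PCDHGC3 only just passed, at a mean of 1.0005 FPKM. Among all 1768 listed genes at that level 43% were higher and 57% lower. The median log2 ratio was 0.42 over the 18 members and -0.32 over the 1768 genes. The table lacks small differences, so each median falls on the side that holds most of the genes. The gap between the medians therefore does not measure a shift. Differences of at least 1.5-fold were fewer. COL16A1, COL5A1 and CDH26 were higher by that much, 3 of 18 members against 9.67% of the 1768 genes, and ADAMTSL3 was lower by that much, 1 of 18 against 18.6%. With counts this small, the share at least 1.5-fold higher lies near the background. The 4 members with a mean under 1 FPKM were KRT75 and PCDHGA8, which were higher, and ADAM12 and CLDN8, which were lower.

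The direction of each member was the same under the 3 rescalings tried, but the size was not. All of them raise the ebastine values, so they could turn only a lower member. Centring sets the median ratio of listed genes averaging 10 FPKM or more to 0. It multiplies every ebastine value by 1.27 (0.35 on the log2 scale). Rescaling to equal upper quartiles multiplies each by 1.15 (0.21 on the log2 scale). The factors come from the listed genes alone, which lack small differences and include more lower than higher genes. They may therefore not reflect the scale of the libraries. After centring, all 13 higher members were at least 1.5-fold higher, beside 40.6% of the 1768 genes, and 0 were that much lower, beside 6.84%. The median was 0.71, where that of all genes was -0.0069. Since 43% of the 1768 genes were higher before centring, nearly every higher listed gene passed 1.5-fold after it. After upper quartile rescaling 9 members were at least 1.5-fold higher, beside 24.4% of the 1768 genes. The 5 lower members moved close to 0 after centring, except ADAMTSL3 at -0.38. VIM stood at -0.0056, PCDH7 at -0.059, DSP at -0.059 and ITGB3BP at -0.086.

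**Figure D2:**
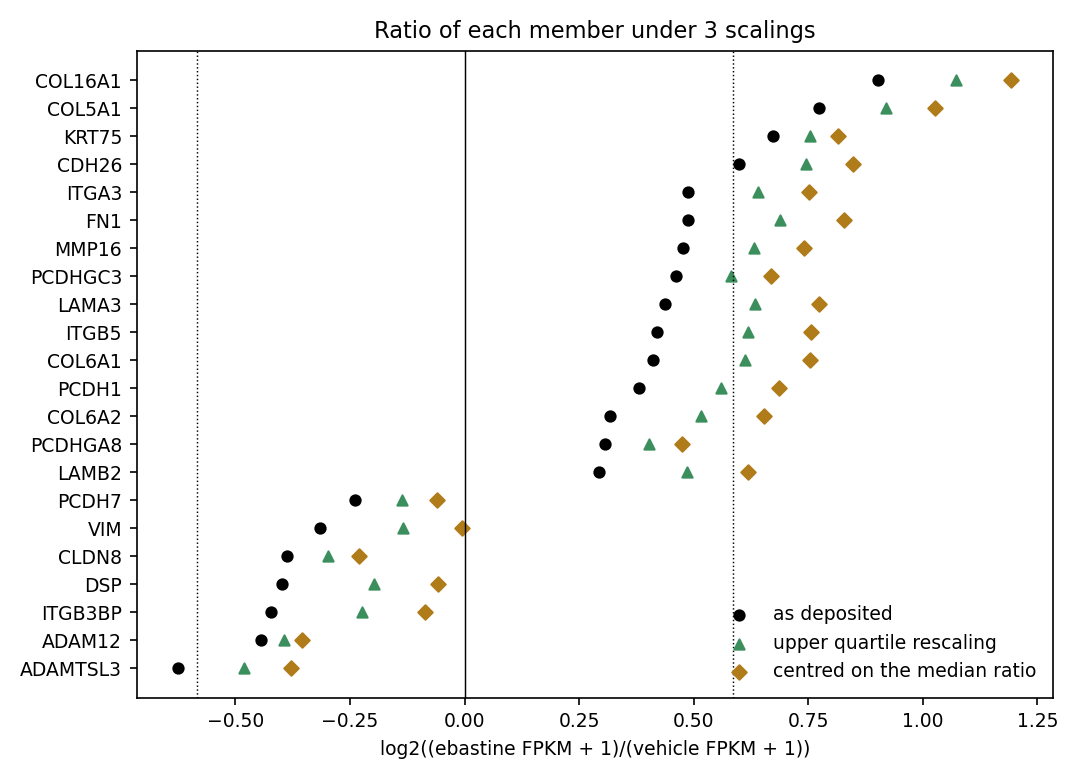
Log2 ratio of each member under 3 scalings of the libraries, with a pseudocount of 1 FPKM: as deposited (circles), upper quartile rescaling (triangles) and centring on the median ratio (diamonds). Dotted lines mark 1.5-fold in each direction. No member crosses 0, and VIM comes nearest to it at -0.0056 after centring.

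The authors' deposited table gives 6 members a q-value under 0.05 with a higher level under ebastine, 6 of 22 against 15.6% of the 1947 listed genes, and 2 with a lower level, 2 of 22 against 25.4%. All 8 had a mean under 5 FPKM. They were COL16A1, COL5A1, KRT75, ITGA3, MMP16 and CDH26 on the higher side and ADAM12 and ADAMTSL3 on the lower side. In either direction these were 2 of 4 members under 1 FPKM, against 29.1% of the listed genes at that level. From 1 to 5 FPKM they were 6 of 8, against 38.0%. None came from the 3 members at 5 to 20 FPKM, against 41.2%, or the 7 above 20 FPKM, against 46.5%. The 10 members that averaged 5 FPKM or more had log2 fold changes of 0.32 to 0.50 in size in the authors' deposited table, where all listed genes had a median size of 0.49 from 5 to 20 FPKM and 0.45 above 20 FPKM, and a smallest size of 0.30 and 0.29. FN1 and LAMA3 lay above the median of their level, and the other 8 below it. These q-values set 1 library against 1 other and do not compare the conditions.

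The 4 collagens ranged widely in ratio, and COL16A1 and COL5A1 had the largest log2 ratios of the members with the pseudocount of 1 FPKM. COL16A1 encodes a fibril-associated collagen (hg19 chromosome 1, 32117848 to 32169768), and measured 1.94 FPKM in vehicle and 4.50 FPKM in ebastine cells. Its log2 ratio of 0.90, or 1.87-fold, ranked 49th from the top among the 1768 genes. COL5A1, a chain of type V collagen that starts and limits the width of collagen fibrils (chromosome 9, 137533651 to 137764464), went from 0.943 to 2.32 FPKM. Its log2 ratio was 0.77 with the pseudocount, and 1.30 without it in the authors' deposited table. Both collagens are low in these cells, and the library with ebastine holds the higher value for each. COL16A1 was 2.06 times as abundant as COL5A1 with vehicle and 1.94 times with ebastine, so the pair kept a similar proportion.

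Type VI collagen, which forms beaded filaments around cells, was represented by a pair of chains that lie near each other on chromosome 21. COL6A1 (47401663 to 47424963) had the highest mean level of the 22 members, with 42.4 FPKM in vehicle and 56.7 FPKM in ebastine cells. COL6A2 (47518033 to 47552763) stood at 19.2 and 24.2 FPKM. Their log2 ratios were 0.41 and 0.32, and COL6A1 was 2.21 times as abundant as COL6A2 with vehicle and 2.35 times with ebastine. COL6A3, the chain that completes the usual heterotrimer, is not among the listed genes. In the authors' deposited table the q-value was 0.0809 for COL6A1 and 0.257 for COL6A2. The 4 collagens summed to 64.5 FPKM in vehicle and 87.7 FPKM in ebastine cells, a ratio of 1.36 carried mostly by the type VI chains.

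Both listed laminin chains were higher by similar amounts. LAMA3, the alpha chain of epithelial laminins that anchor hemidesmosomes (chromosome 18, 21269562 to 21535029), went from 19.5 to 26.7 FPKM, a log2 ratio of 0.44. LAMB2, a beta chain of other basement membrane laminins (chromosome 3, 49158547 to 49170599), went from 10.8 to 13.4 FPKM, a log2 ratio of 0.29. LAMA3 was 1.81 times as abundant as LAMB2 with vehicle and 1.99 times with ebastine. Their partners LAMB3 and LAMC1 were not listed. Fibronectin, FN1 (chromosome 2, 216225179 to 216300791), went from 32.1 to 45.4 FPKM, a log2 ratio of 0.49, with a q-value of 0.0942 in the authors' deposited table.

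Integrins were represented by 1 alpha and 1 beta subunit. ITGA3, the alpha subunit of a laminin-binding integrin (chromosome 17, 48133340 to 48167849), was low, with 1.69 FPKM in vehicle and 2.77 FPKM in ebastine cells. ITGB5, the beta subunit of a vitronectin receptor (chromosome 3, 124481795 to 124606144), was more abundant, at 18.2 and 24.7 FPKM. The log2 ratios were 0.49 and 0.42. The subunits with which these pair, ITGB1 and ITGAV, were not listed. Over the same 9 genes the log2 ratio ran from 0.29 (LAMB2) to 0.90 (COL16A1), with a median of 0.44, and the median was 0.76 after centring.

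**Figure D3:**
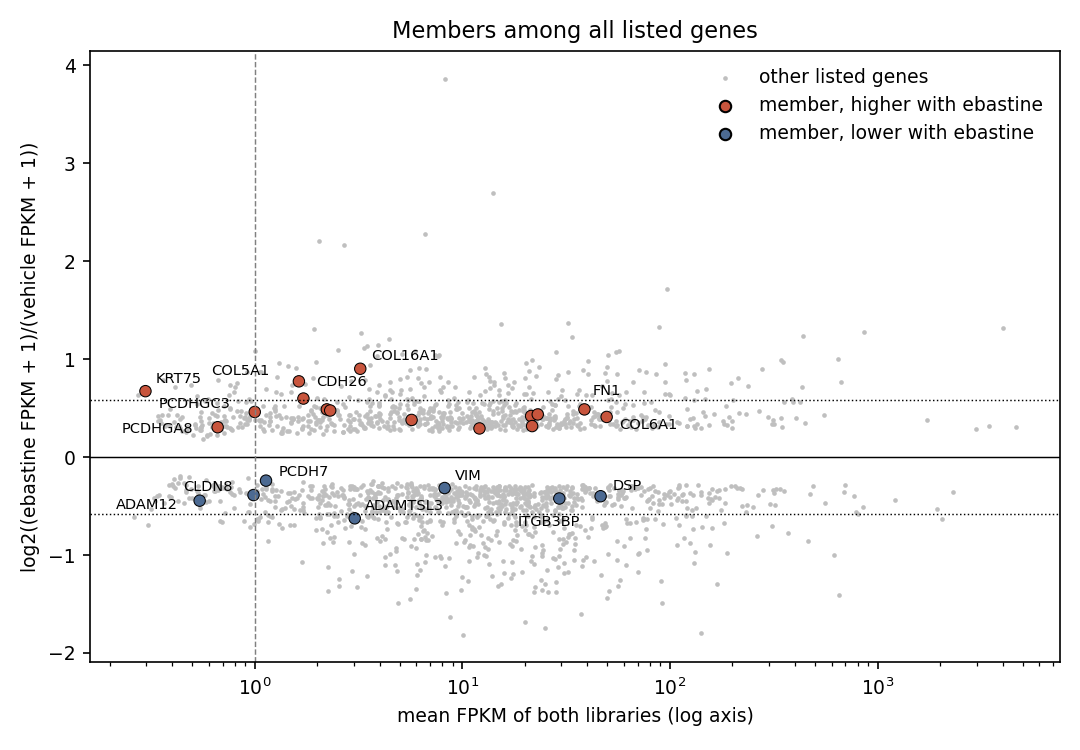
Log2 ratio (pseudocount 1 FPKM) of all 1947 listed genes against their mean FPKM on a log axis, with members outlined in black and 15 of them named. Dotted lines mark 1.5-fold, and the dashed line marks a mean of 1 FPKM. The table holds only genes under the p-value limit, which leaves a gap around 0 at higher levels, while the pseudocount pulls low genes towards 0. The 10 members above 5 FPKM lie between the dotted lines.

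Of the 5 cadherins and protocadherins 4 were higher, among them PCDHGA8 and PCDHGC3, which are not independent values, as described below. Most of the class was low. CDH26, an atypical cadherin of epithelia (chromosome 20, 58533471 to 58608829), went from 1.16 to 2.27 FPKM, a log2 ratio of 0.60 that lies just past the 1.5-fold limit of 0.58. PCDH1, a protocadherin of epithelial junctions (chromosome 5, 141232673 to 141257944), was the most abundant of the class, with 4.82 FPKM in vehicle and 6.57 FPKM in ebastine cells. PCDH7 (chromosome 4, 30722030 to 31148423) was the exception, at 1.31 and 0.957 FPKM, a log2 ratio of -0.24. The 5 genes summed to 8.46 FPKM in vehicle and 12.0 FPKM in ebastine cells.

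PCDHGA8 and PCDHGC3 belong to the gamma protocadherin cluster, in which each variable exon has its own promoter and is spliced to the same constant exons. PCDHGA8 measured 0.488 and then 0.839 FPKM in vehicle and ebastine cells, and PCDHGC3 at 0.683 and 1.32 FPKM. The table gives both genes the same locus (chromosome 5, 140710252 to 140892548, 182 kb), whereas their RefSeq genes span 120 and 37.0 kb. In GENCODE 29 the coding transcripts of the pair that share most end in the same 2184 bases, out of 4605 for PCDHGA8 and 4725 for PCDHGC3. Of the 50-base words of these transcripts, 46.9% and 45.7% occur in the other. The longest coding PCDHGA8 transcript, of 6480 bases, shares no such word with the coding PCDHGC3 transcripts, but shares words with 28 other genes. The longest coding PCDHGC3 transcript shares words with 21 other genes. Reads from the constant exons cannot be assigned to either gene by sequence, and may come from other genes that share them. The level of each is therefore uncertain, and the pair is not a pair of independent values. The printed starts do differ, with a GC content of 32% before PCDHGA8 and 60% before PCDHGC3, and CCAAT is found 2 times before PCDHGC3.

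Junction and filament genes did not share a direction. Desmoplakin, DSP, which ties keratin filaments to desmosomes (chromosome 6, 7541870 to 7586946), had the highest vehicle level of all members, 52.8 FPKM, and stood at 39.8 FPKM with ebastine, a log2 ratio of -0.40. CLDN8, a tight junction claudin (chromosome 21, 31586324 to 31588469), was low, at 1.25 and 0.722 FPKM. Vimentin, VIM (chromosome 10, 17257195 to 17279592), the filament of mesenchymal cells, went from 9.22 to 7.21 FPKM, a log2 ratio of -0.32. Its reported locus spans 22.4 kb, 2.39 times the RefSeq gene, and can include overlapping transcripts. For the 19 members other than VIM and the gamma protocadherins this span was 0.892 to 1.14 times the RefSeq gene.

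The mesenchymal markers FN1 and VIM therefore lay in opposite directions as deposited. VIM stood at -0.0056 after centring, and its q-value was 0.325 in the authors' deposited table. FN1 was 3.48 times as abundant as VIM with vehicle and 6.29 times with ebastine. KRT75, a hair follicle keratin, was the only keratin in the table (chromosome 12, 52817854 to 52828110). It is listed at 0 FPKM with vehicle and at 0.596 FPKM with ebastine, so no fold is given. The luminal keratins KRT8, KRT18 and KRT19 were not listed. Of the 50-base words of the longest coding KRT75 transcript, 0.044% occur in another gene, KRT6B, and none of those of the other members outside the gamma protocadherins occurs in another gene.

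Of the metalloproteinases and their relatives 3 were listed, and they did not share a direction. MMP16, a membrane-anchored metalloproteinase (chromosome 8, 89049460 to 89339717), went from 1.77 to 2.85 FPKM, a log2 ratio of 0.48. ADAM12, a membrane or secreted metalloproteinase (chromosome 10, 127702902 to 128077127), went from 0.779 to 0.307 FPKM. Its deposited log2 fold change was -1.34 in the authors' deposited table, and its ratio with the pseudocount was -0.44. ADAMTSL3, a matrix glycoprotein that resembles the ADAMTS proteases but lacks the protease domain (chromosome 15, 84322838 to 84708593), went from 3.89 to 2.17 FPKM, a log2 ratio of -0.62. Among members with a mean of at least 1 FPKM it was the only one at least 1.5-fold lower with the pseudocount of 1 FPKM. ADAM12 and CLDN8, both under that mean, were 2.53-fold and 1.73-fold lower without a pseudocount. ITGB3BP (chromosome 1, 63906441 to 63988944) went from 33.7 to 24.9 FPKM, a log2 ratio of -0.42, and leaving it out left 13 higher and 4 lower members.

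The genes that work with these families were taken from 12 lists, which held 215 symbols outside the members, older names included. Of these, 24 were listed, all with a mean of at least 1 FPKM, 9 higher and 15 lower with ebastine. At 1.5-fold, 1 was higher and 6 lower, and their median log2 ratio was -0.33. These counts lie near the shares of all listed genes, 43% higher, 9.67% at least 1.5-fold higher and 18.6% at least 1.5-fold lower. The lists of luminal keratins, of basal markers and of fibroblast and endothelial markers had no listed gene.

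The listed enzymes that fold and crosslink collagen lay opposite to the collagen chains as deposited. Of 25 such genes 4 were listed, and all 4 were lower with ebastine as deposited, although PLOD1 turned to 0.00096 after centring. Lower values were common in the table, at 57% of the 1768 genes, whose median log2 ratio was -0.32. PLOD1, at -0.34, lay close to that median, and only PLOD2 and LOX were at least 1.5-fold lower. With 4 genes, the shared direction says little about the class. The lysyl hydroxylase PLOD2 went from 14.6 to 5.09 FPKM, a log2 ratio of -1.36, and the crosslinking enzyme LOX from 3.46 to 1.05 FPKM, a log2 ratio of -1.12. The prolyl hydroxylase subunit P4HA1 went from 104 to 70.8 FPKM and PLOD1 from 83.6 to 65.7 FPKM. PLOD2, LOX and P4HA1 are known to be induced by hypoxia, but a link of these values to hypoxia was not tested. The authors' deposited table gives each of these 3 a q-value of 0.00178. All 4 collagen chains were higher in the same pair of libraries, and the difference between chains and enzymes was not tested.

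**Figure D4:**
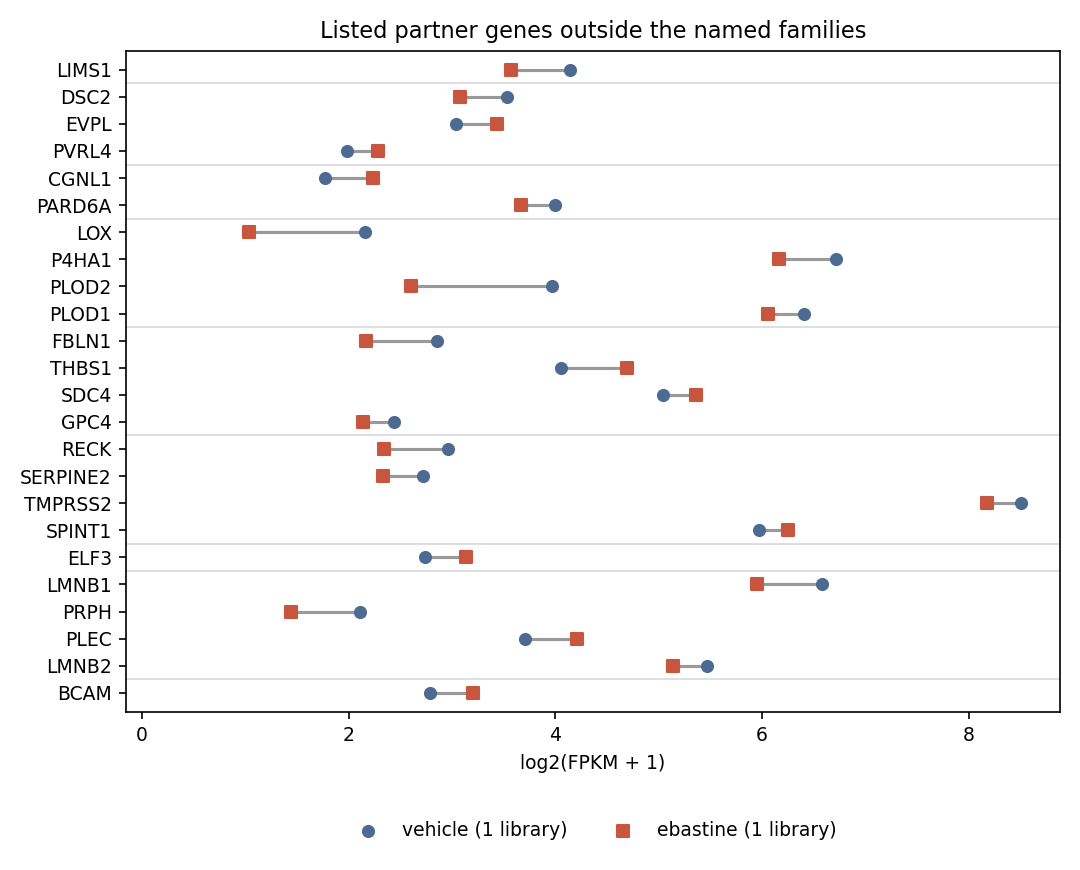
Level of the 24 listed partner genes as log2(FPKM + 1), with circles for vehicle, squares for ebastine and grey lines between lists. The 4 collagen-modifying enzymes, LOX, P4HA1, PLOD2 and PLOD1, have their squares to the left, and THBS1 has the largest shift to the right at a log2 ratio of 0.64.

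Other matrix glycoproteins and proteoglycans were split, with 4 of 37 listed. Thrombospondin THBS1, a matrix glycoprotein, went from 15.6 to 24.8 FPKM and was the only partner at least 1.5-fold higher, and the heparan sulfate proteoglycan SDC4 went from 31.9 to 40.03 FPKM. The fibulin FBLN1 went from 6.25 to 3.50 FPKM and the glypican GPC4 from 4.41 to 3.42 FPKM. Of 17 pericellular proteases and inhibitors 4 were listed. RECK, a membrane inhibitor of metalloproteinases, went from 6.77 to 4.08 FPKM and SERPINE2 from 5.59 to 4.05 FPKM. The protease inhibitor SPINT1 was higher, at 61.6 and 75.2 FPKM. TMPRSS2 stood at 362 and 289 FPKM, a log2 ratio of -0.33 that turned to 0.021 after centring.

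Of the proteins that link integrins and junctions to the cytoskeleton few were listed. Of 24 focal adhesion genes 1 was listed, LIMS1, a partner of integrin-linked kinase, which went from 16.7 to 10.9 FPKM. Of 22 adherens junction and desmosome partners, the desmosomal cadherin DSC2 went from 10.6 to 7.45 FPKM, in the same direction as DSP, while envoplakin EVPL and the nectin PVRL4 were higher at log2 ratios of 0.39 and 0.30. Of 18 tight and gap junction partners, CGNL1 was higher at 0.46 and PARD6A lower at -0.33. Among 15 other filament and plakin genes, plectin PLEC, which binds keratins and integrins, went from 12.02 to 17.5 FPKM. The nuclear lamins LMNB1 and LMNB2 and the neuronal filament PRPH were lower, at -0.63, -0.33 and -0.67, and LMNB2 turned to 0.0099 after centring. Of 23 other adhesion molecules BCAM, a laminin receptor, was higher at 0.42. Of 13 epithelial to mesenchymal transition factors and partners only ELF3 was listed, and it was higher at 0.39. That list does not separate genes that promote the transition from genes that oppose it, so this value gives no direction for it.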

How the data were processed

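Polyadenylated RNA of 1 vehicle and 1 ebastine culture of C4-2 cells was compared. Per the submitters' processing notes the authors used TopHat2, Cuffdiff and the hg19 build, without versions. The deposited table gives FPKM per gene for each library, the authors' log2 fold change, a Cuffdiff test score that was not used here, and a deposited p-value and q-value. The sources used here give no gene models, filters or scaling method. The deposited q-values match a Benjamini-Hochberg adjustment over 13701.2 to 13714.1 tests, so the table holds only part of the genes tested. Depth is unknown.

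Members were found by name, and locus starts were converted to count from 1. Ratios used a pseudocount of 1 FPKM, counts a minimum mean of 1 FPKM and a limit of 1.5-fold, with Python 3.11.15, pandas 2.3.3 and numpy 2.4.6. Counting and scaling were tested on simulated data. Every member was named, with full values, and every listed gene of the partner lists (at most 5 a list by size of ratio). Alternatives changed the pseudocount, the minimum, the scaling, the q-value limit and the fold limit. Members and lists were chosen with earlier results of these data known. Some genes are not reported here. Transcript sequences came from GENCODE 29 and promoter windows from RefSeq on GRCh38.p14, used for sequence only.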

Additional observations from a re-analysis of the deposited data

How the results depend on the processing

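The 13 higher and 5 lower members stayed 13 and 5 under both other pseudocounts and the 3 rescalings. A pseudocount cannot change a direction. Every rescaling raised the ebastine values, so none could turn a higher member lower. Among the lower members VIM had the smallest deposited log2 fold change, -0.35, and only the centring shift of 0.35 came near that size. The unchanged counts therefore say little about direction. The higher and lower members were 7 and 3 with a minimum mean of 5 FPKM and 5 and 1 with a q-value under 0.05, settings that leave 10 and 6 members. Among all listed genes at those settings 41.4% and 36.0% were higher. With no minimum, 15 of 22 were higher (44.5% of all listed genes) and 7 lower. At that setting 4 of the 22 were at least 1.5-fold higher (9.55% of all listed genes). The 3 members at least 1.5-fold higher became 6 with a pseudocount of 0.1 FPKM (14.9% of all listed genes at that setting), 13 after centring (40.6%) and 9 after upper quartile rescaling (24.4%). They became 0 with a pseudocount of 5 FPKM (4.75%), a minimum mean of 5 FPKM (9.56%) or a limit of 2-fold (1.81%). The 1 member at least 1.5-fold lower became 0 in each of these except the pseudocount of 0.1 FPKM (24.4% of all listed genes). The shares of all listed genes that were lower by the limit were 6.84% after centring and 10.4% after upper quartile rescaling. They were 10.1% with a pseudocount of 5 FPKM, 19.7% with a minimum mean of 5 FPKM and 4.86% with a limit of 2-fold. The median of 0.42 became 0.23 with a pseudocount of 5 FPKM, 0.71 after centring, 0.60 after upper quartile rescaling and 0.54 with a q-value under 0.05. No member reversed. For the partner genes, alternatives were added after seeing the data. The 1 at least 1.5-fold higher turned into 2 with a pseudocount of 0.1 FPKM, 0 with 5 FPKM, 8 after centring and 4 after upper quartile rescaling, and the 6 at least 1.5-fold lower became 2 in the last 3 of these settings. Centring reversed PLOD1 (0.00096), TMPRSS2 (0.021) and LMNB2 (0.0099). A median was called moved at a shift over 0.1 on the log2 scale, since no spread between replicates exists. With 1 library per group no replicate can be left out. No paired analysis was possible because each group holds 1 library. Low members rest on few reads of unknown number.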
